A study of Bos taurus with 9 samples.

Results

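The genes that write, erase and read histone acetylation were followed in cloned cattle embryos. These were produced by somatic cell nuclear transfer (SCNT), the transplantation of a body cell nucleus into an enucleated egg. The set is a list of 30 named genes, taken by symbol with no cut on measured values, but drawn up with earlier results of these data known. It holds 11 zinc-dependent deacetylases (HDAC1 to HDAC11), 7 NAD-dependent sirtuins (SIRT1 to SIRT7), 10 acetyltransferases (HAT1, KAT2A, KAT2B, KAT5, KAT6A, KAT6B, KAT7, KAT8, EP300 and CREBBP) and 2 BET readers (BRD2 and BRD3). Of these, 29 were found, among 16129 genes shared by all 9 libraries. The remaining gene, HDAC3, was not analysed here. EP300 carries its symbol in the morula files only, and its values in the 8-cell files were joined through the Ensembl identifier ENSBTAG00000016198.5.

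The libraries fall into 3 groups of 3. KDM6A morulae came from SCNT embryos injected with bovine wild-type KDM6A mRNA 1 h after activation. Control morulae came from SCNT embryos without injection, and no sham injection is described. The third group was SCNT 8-cell embryos without injection, which the labels take from an earlier series. Wherever they are compared with morulae, the effects of stage and of series cannot be told apart. Donor nuclei in the described protocol came from fibroblasts of 1 female Holstein fetus, and each morula library was a pool of 5 embryos taken after 5 days of culture. The labels do not say that pools of a group came from separate batches of oocytes, and the spread behind each p-value is that between pools, which may be technical in part.

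Acetylation of histone tails loosens the contact of histones with DNA and marks active promoters and enhancers. Acetyltransferases add the group from acetyl-CoA, deacetylases remove it, and bromodomain proteins such as the BET family bind it. On lysine 27 of histone H3 the acetyl group takes the same residue as the methyl marks that KDM6A removes, and EP300 and CREBBP are the enzymes known for acetylating it. In cloned embryos, deacetylase inhibitors are widely used to aid reprogramming of the donor nucleus.

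Levels are FPKM, that is, fragments counted per unit of transcript length and library size. Depth is not known. KDM6A, the injected gene, stood at 35.65, 87.58 and 79.44 FPKM in KDM6A morulae, against 10.72, 13.86 and 10.74 FPKM in control morulae (log2 fold change 2.33, SE 0.304, adjusted p = 0.0147 with limma). It was at 6.13, 9.41 and 10.73 FPKM in 8-cell embryos. Injected and embryonic KDM6A transcripts are not separated by these values, and replicate 1 had the lowest KDM6A level of the injected libraries. Correlations of log2(FPKM + 1) within groups were 0.983 to 0.993 in KDM6A morulae, 0.986 to 0.992 in control morulae and 0.973 to 0.979 in 8-cell embryos. KDM6A replicate 1 correlated at 0.989 to 0.99 with the control morulae, above its 0.986 and 0.983 with KDM6A replicates 2 and 3. Replicates 2 and 3 correlated at 0.979 to 0.986 with the control morulae and at 0.993 with each other. A list of oocyte and maternal transcripts, 11 of 12 of them found, summed to 114.7 to 197.3 FPKM in KDM6A morulae, 23.3 to 499.8 FPKM in control morulae and 3855 to 9160 FPKM in 8-cell embryos. Control replicate 1 had the highest of these sums among the morula libraries, at 499.8 FPKM, with 23.3 and 119.5 FPKM in control replicates 2 and 3. The 12 fibroblast markers, for the donor cell type, summed to 56.8 to 75.55 FPKM in KDM6A morulae, 48.26 to 67.25 FPKM in control morulae and 32.7 to 79.07 FPKM in 8-cell embryos, and the collagens COL1A1, COL1A2 and COL3A1 stood at or under 1.17 FPKM in all morula libraries. Other fibroblast markers were present in the morula libraries, PDGFRA at 13.83 to 32.41 FPKM, DCN at 7.63 to 27.06 FPKM and S100A4 at 12.45 to 20.2 FPKM. 8-cell replicate 2 stood apart, with COL3A1 at 2.48, COL1A1 at 5.09 and LUM at 29.11 FPKM, each above every other library. The stage calls that changed without it are named below. Cumulus and granulosa markers, 7 of 9 found, summed to 7.56 to 12.46 FPKM in KDM6A morulae, 11.89 to 14.57 FPKM in control morulae and 18.82 to 36.83 FPKM in 8-cell embryos, with PTX3 at 0 in 7 of the 9 libraries, STAR at 3.52 to 10.82 FPKM and TNFAIP6 at 1.83 to 9.56 FPKM over all 9, and HAS2 at 5.57 to 19.82 FPKM in 8-cell embryos. The 6 pluripotency genes summed to 528.3 to 712.6 FPKM in KDM6A morulae, 608.5 to 844.8 FPKM in control morulae and 1309 to 1949 FPKM in 8-cell embryos. DPPA3 made up most of that sum in 8-cell embryos, at 1179 to 1875 FPKM. The mean log2(FPKM + 1) over the 6 genes had the opposite order of stages, at 4.51 to 5.02 in KDM6A morulae, 4.80 to 4.83 in control morulae and 4.16 to 4.42 in 8-cell embryos. Among them POU5F1 stood at 66.02 to 169.3 FPKM in KDM6A morulae, 123.9 to 167 FPKM in control morulae and 6.27 to 10.63 FPKM in 8-cell embryos. The part of the maternal and cumulus transcripts in the stage results below was not tested.

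The members spanned a wide range of levels. HAT1, the enzyme that acetylates newly made histone H4 before it is placed on DNA, had the highest FPKM of the 29 genes in each group: 289 ± 21.4 in KDM6A morulae, 303 ± 42.9 in control morulae and 386 ± 19.4 in 8-cell embryos (SD, n = 3 each). HDAC1, a core deacetylase of the Sin3, NuRD and CoREST repressor complexes, came second in both morula groups at 156 ± 13.3 FPKM in KDM6A morulae and 163 ± 19.7 FPKM in control morulae (SD, n = 3 each). In 8-cell embryos second place went to its close relative HDAC2, at 68.5 ± 14.9 FPKM (SD, n = 3). HDAC4, HDAC7, HDAC9, HDAC10 and HDAC11 lay at or under 2.24 FPKM in every library. The median coefficient of variation between libraries was 17.8% for the members and 19.8% for all genes in KDM6A morulae, 16.9% and 17.1% in control morulae, and 21.8% and 26.7% in 8-cell embryos (genes averaging 1 FPKM or more in that group).

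**Figure D1:**
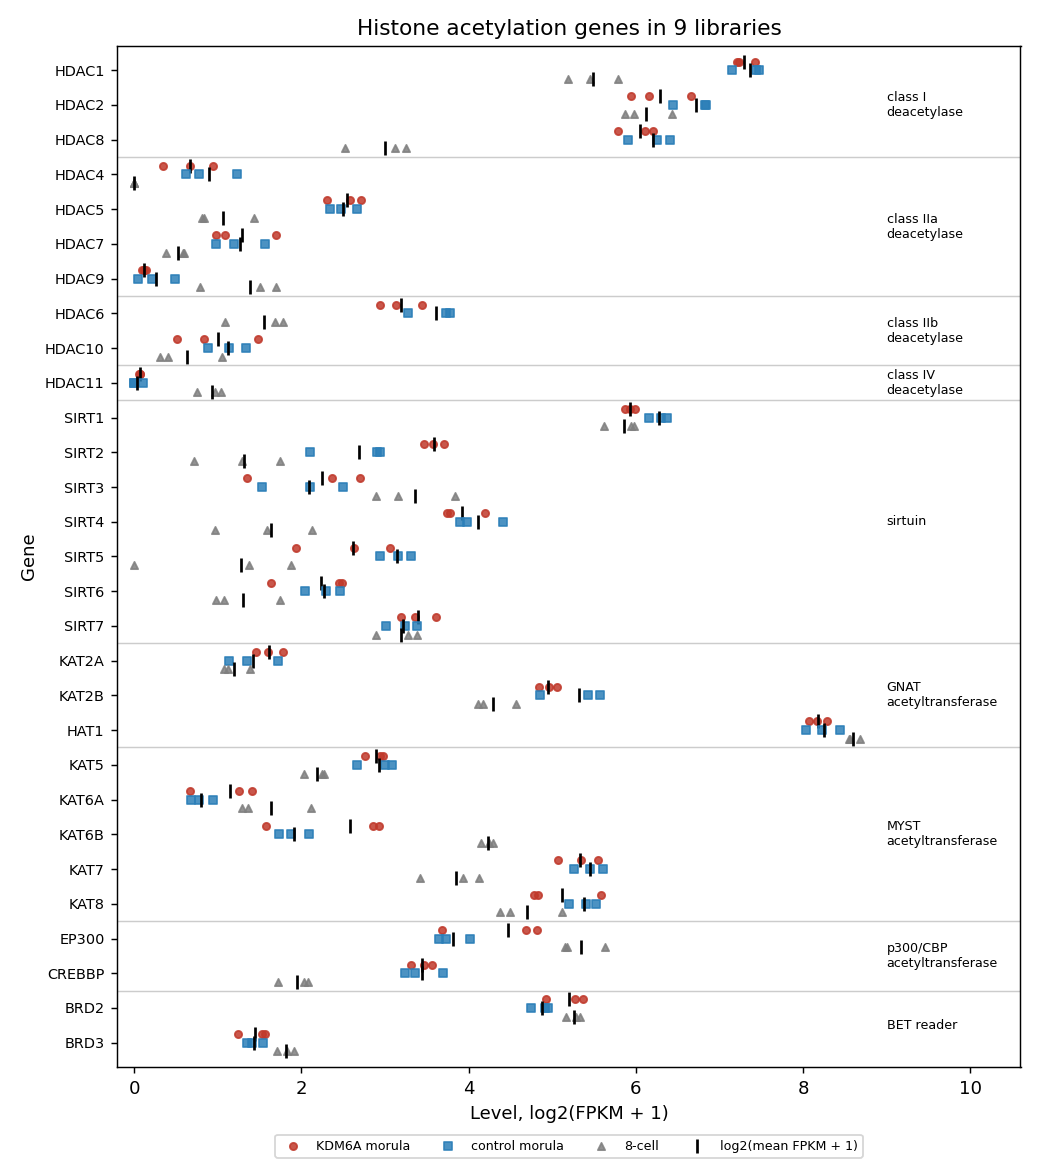
Level of each of the 29 genes in each library, as log2(FPKM + 1), with the genes ordered by class. Red circles are KDM6A morulae, blue squares control morulae and grey triangles 8-cell embryos, and the black bar is the group mean. HDAC1, HDAC8, SIRT4 and KAT7 sit further right in both morula groups than in 8-cell embryos, while KAT6B and EP300 sit further left.

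The first comparison asks whether supplied KDM6A altered the transcripts of the acetylation machinery at the morula stage. No member passed the threshold of adjusted p under 0.05. A total of 25 members were tested with limma, 0 were called, and 2 had an unadjusted p under 0.05. Over all 9777 genes tested, 0.164% were called and 12.7% had an unadjusted p under 0.05. The median log2 fold change was -0.06 over the 25 members and -0.01 over all genes tested. Of the members, 11 had a fold change above 0 and 14 below, and their adjusted p ran from 0.236 to 0.994. HDAC4, HDAC9, HDAC11 and KAT6A were too low to test. In these pools, a smaller number of cells with a transcript and less transcript per cell cannot be told apart.

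Among the deacetylases of class I, HDAC1 had 149.5, 171.2 and 147.1 FPKM in KDM6A morulae, against 172.3, 177.1 and 140.9 FPKM in control morulae. The groups overlapped, with a log2 fold change of -0.06 and an SE of 0.154. HDAC2 had 100.3, 70.23 and 60.67 FPKM in KDM6A morulae, against 86.16, 112.5 and 113.5 FPKM in control morulae. KDM6A replicates 2 and 3 were below all control libraries and replicate 1 was within their range, and the log2 fold change of -0.45 (SE 0.209) had an adjusted p of 0.4 with limma. HDAC8, a class I enzyme known for deacetylating the cohesin subunit SMC3, had 68.27, 54.13 and 72.96 FPKM in KDM6A morulae, against 75.56, 83.74 and 58.87 FPKM in control morulae, again with overlap. The class II members tested had log2 fold changes from -0.42 for HDAC6, the cytoplasmic tubulin deacetylase, to 0.04 for HDAC5, which binds MEF2 factors.

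The 2 members with the smallest unadjusted p were both sirtuins. SIRT2, which deacetylates tubulin and histone H4, stood at 10.06, 10.88 and 12.06 FPKM in KDM6A morulae, against 6.46, 6.65 and 3.3 FPKM in control morulae. All 3 KDM6A libraries were above all 3 control libraries, a ratio of means of 2.01, yet with limma the log2 fold change of 0.94 (SE 0.253, unadjusted p = 0.00367) had an adjusted p of 0.236. SIRT1, the nuclear sirtuin best known for acting on p53 and histones, stood at 59.95, 57.52 and 62.62 FPKM in KDM6A morulae, against 70.19, 82.02 and 77.67 FPKM in control morulae. Its groups did not overlap either, in the other direction, with a log2 fold change of -0.34 (SE 0.154, adjusted p = 0.387 with limma). SIRT2 and SIRT1 were the only 2 of the 25 members without overlap between groups, where 15.7% of all genes tested had none. The remaining sirtuins, the mitochondrial SIRT3, SIRT4 and SIRT5 and the nuclear SIRT6 and SIRT7, overlapped, with log2 fold changes from -0.60 for SIRT5 to 0.17 for SIRT7.

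Among the acetyltransferases, EP300 had 11.81, 24.78 and 27.12 FPKM in KDM6A morulae, against 15.18, 11.53 and 12.32 FPKM in control morulae. KAT6B, a MYST-family enzyme that acts on histone H3 with BRPF scaffold proteins, had 1.98, 6.64 and 6.27 FPKM in KDM6A morulae, against 2.32, 2.67 and 3.26 FPKM in control morulae. In both genes KDM6A replicates 2 and 3 stood above all control libraries and replicate 1 did not. With all libraries the log2 fold changes were 0.59 (SE 0.288, adjusted p = 0.416 with limma) for EP300 and 0.56 (SE 0.338, adjusted p = 0.504 with limma) for KAT6B. Without KDM6A replicate 1 they were 0.95 (adjusted p = 0.0203) for EP300 and 1.00 (adjusted p = 0.0246) for KAT6B, so that 2 of 25 members were called, both higher. In that fit 7.62% of all genes were called and 3.89% were called higher. With any other library left out, 0 members were called. A list of genome activation genes held ZSCAN4, KLF17 and UBTFL1 (3 of 7 found). Its sum was higher in all 3 KDM6A libraries than in all 3 control libraries. The list summed to 150.2, 194.9 and 174.8 FPKM in KDM6A morulae, 132.7, 69.07 and 82.34 FPKM in control morulae and 271.7 to 401.1 FPKM in 8-cell embryos. ZSCAN4 and UBTFL1 also separated the groups. KLF17 overlapped, at 64.95, 109.64 and 100.65 FPKM in KDM6A morulae, against 77.28, 30.65 and 32.39 FPKM in control morulae. The part of this list in the EP300 and KAT6B values was not tested. The 7 trophectoderm markers differed in the other direction: their mean log2(FPKM + 1) was 3.69, 3.28 and 3.06 in KDM6A morulae, 3.83, 3.92 and 4.11 in control morulae and 2.15 to 2.45 in 8-cell embryos. Of these markers GATA3 stood at 2.33 to 3.29 FPKM in KDM6A morulae, against 7.04 to 8.35 FPKM in control morulae, and TEAD4 at 22.7 to 38.18 FPKM in KDM6A morulae, against 42.27 to 47.95 FPKM in control morulae. GATA2 was also lower without overlap, at 0.5 to 0.93 FPKM in KDM6A morulae and 2.44 to 3.24 FPKM in control morulae. KRT8, KRT18, TFAP2C and TFAP2A overlapped. KRT18 stood at 18.45 to 51.52 FPKM in KDM6A morulae, against 31.76 to 66.19 FPKM in control morulae. TFAP2C stood at 161.4 to 184.5 FPKM in KDM6A morulae, against 160.7 to 171 FPKM in control morulae. The summed FPKM of the 7 markers, carried by TFAP2C, overlapped, at 233.3 to 284.3 in KDM6A morulae and 261.5 to 314.7 in control morulae. The part of these markers in the members' values was not tested either.

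CREBBP, the partner of EP300 in sequence and activity, had 10.03, 10.77 and 8.93 FPKM in KDM6A morulae, against 8.45, 11.99 and 9.26 FPKM in control morulae. Its log2 fold change was 0.01 (SE 0.206), and the groups overlapped. KAT6A, the relative of KAT6B, was under the test's floor at 0.59, 1.65 and 1.39 FPKM in KDM6A morulae, against 0.93, 0.6 and 0.71 FPKM in control morulae. KAT8, which acetylates lysine 16 of histone H4 in the MSL and NSL complexes, had 46.81, 27.41 and 26.47 FPKM in KDM6A morulae, against 41.36, 44.85 and 35.72 FPKM in control morulae. As for HDAC2, its replicates 2 and 3 stood below the control libraries and replicate 1 did not (log2 fold change -0.31, SE 0.231). HAT1, KAT2A, KAT2B, KAT5 and KAT7 overlapped between the groups, with log2 fold changes from -0.33 for KAT2B to 0.21 for KAT2A. Of the BET readers, which carry acetyl-lysine binding to the transcription machinery, BRD2 had 29.48, 40.46 and 37.61 FPKM in KDM6A morulae, against 29.92, 29.05 and 25.9 FPKM in control morulae (log2 fold change 0.32, SE 0.184, adjusted p = 0.48 with limma). BRD3 was between 1.36 and 1.95 FPKM in the morula libraries, with a log2 fold change of 0.01.

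**Figure D2:**
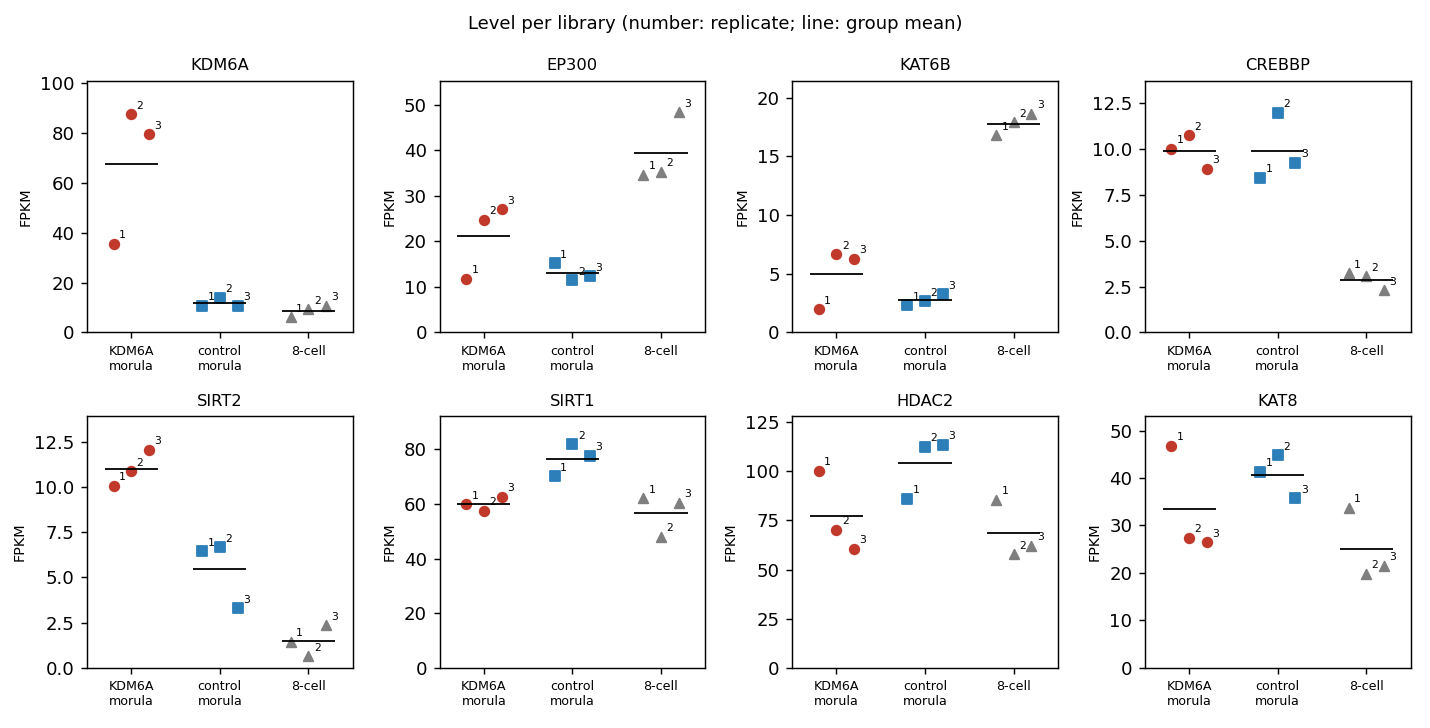
FPKM of KDM6A and 7 members in each library, with the replicate number beside each point and a line at the group mean. KDM6A replicate 1, at 35.65 FPKM of KDM6A, lies nearer to the control morulae than replicates 2 and 3 do for EP300, KAT6B, HDAC2 and KAT8, while SIRT2 and SIRT1 separate all 3 KDM6A libraries from all 3 control libraries.

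The next comparison sets control morulae against 8-cell embryos, and covers the time in which the bovine embryo moves from stored maternal transcripts to its own. Most members differed. Of 25 tested with limma, 14 rose and 4 fell in control morulae, a total of 72%, which is close to the background: over all 10048 genes tested 69.8% were called, 42.7% higher and 27.1% lower. The median log2 fold change was 0.71 over the members and 0.35 over all genes tested. The direction depended in part on scaling. Under quantile normalization the split of the members was 11 higher and 7 lower and the median over all genes fell to 0.07, and under median-of-ratios scaling the split was 11 and 6 with a median over all genes of 0.16.

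The 3 class I deacetylases that were found all rose, and HDAC3, also of class I, was not analysed. HDAC8 had the largest log2 fold change of the members tested, at 75.56, 83.74 and 58.87 FPKM in control morulae, against 8.56, 4.76 and 7.73 FPKM in 8-cell embryos. That is a ratio of means of 10.4 and a log2 fold change of 3.22 (SE 0.253, adjusted p = 6.02e-06 with limma). HDAC1 was 3.71-fold higher, at 172.3, 177.1 and 140.9 FPKM in control morulae, against 42.82, 35.35 and 54.01 FPKM in 8-cell embryos (log2 fold change 1.88, SE 0.208, adjusted p = 3.81e-05 with limma). HDAC2 differed less, at 86.16, 112.5 and 113.5 FPKM in control morulae, against 85.47, 57.71 and 62.19 FPKM in 8-cell embryos. The lowest control library was within 1 FPKM of the highest 8-cell library, and the HDAC2 call (log2 fold change 0.61, adjusted p = 0.0274 with limma) did not withstand scaling, with an adjusted p of 0.0924 under quantile normalization and 0.112 under median-of-ratios scaling. It was also lost without control replicate 2 (adjusted p = 0.0911) or 3 (0.107) and without 8-cell replicate 2 (0.069) or 3 (0.0817).

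The larger class II enzymes HDAC5 and HDAC6 rose as well. HDAC6 was at 8.68, 12.72 and 12.26 FPKM in control morulae, against 2.45, 1.13 and 2.21 FPKM in 8-cell embryos (log2 fold change 2.07, SE 0.276, adjusted p = 0.000115 with limma). HDAC5 was at 4.07, 5.33 and 4.55 FPKM in control morulae, against 1.71, 0.79 and 0.75 FPKM in 8-cell embryos (log2 fold change 1.46, SE 0.252, adjusted p = 0.000546 with limma). HDAC5 reached 1 FPKM in only 1 of the 8-cell libraries, so it met the filter through the control libraries, where it was higher. It was also called with no filter on low values. Its class IIa relatives were too low to test and did not share 1 direction. HDAC4 was listed at 0 in all 8-cell libraries and at 0.54, 1.34 and 0.71 FPKM in control morulae. HDAC7, a partner of MEF2 factors like HDAC5, was at 0.98, 1.96 and 1.29 FPKM in control morulae, against 0.5, 0.51 and 0.3 FPKM in 8-cell embryos. HDAC9 had the opposite order, at 0.4, 0.16 and 0.03 FPKM in control morulae, against 1.85, 2.23 and 0.73 FPKM in 8-cell embryos. HDAC11, the single class IV deacetylase, followed HDAC9, at 0.08, 0 and 0 FPKM in control morulae, against 0.96, 1.06 and 0.68 FPKM in 8-cell embryos. HDAC10, a polyamine deacetylase, overlapped between the groups and was not called (log2 fold change 0.53, adjusted p = 0.0809 with limma), although it was without 8-cell replicate 1 (adjusted p = 0.0146).

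Of the 7 sirtuins, 4 rose and 1 fell. The mitochondrial members went in different directions. SIRT4 was at 20.23, 14.85 and 13.89 FPKM in control morulae, against 2.01, 0.96 and 3.37 FPKM in 8-cell embryos (log2 fold change 2.53, SE 0.32, adjusted p = 8.16e-05 with limma). SIRT5, which removes succinyl and other acyl groups, was at 6.7, 7.95 and 8.93 FPKM in control morulae, against 2.67, 1.59 and 0 FPKM in 8-cell embryos (log2 fold change 2.06, adjusted p = 0.00161 with limma). SIRT3, the main mitochondrial deacetylase, fell, at 4.63, 3.29 and 1.89 FPKM in control morulae, against 13.29, 7.95 and 6.44 FPKM in 8-cell embryos (log2 fold change -1.26, SE 0.333, adjusted p = 0.00687 with limma). Thus all control libraries were above all 8-cell libraries for SIRT4 and SIRT5, and below them for SIRT3. SIRT2 was at 6.46, 6.65 and 3.3 FPKM in control morulae, against 1.45, 0.64 and 2.35 FPKM in 8-cell embryos (log2 fold change 1.40, adjusted p = 0.00386 with limma). SIRT6, a deacetylase of histone H3 at telomeres and promoters, averaged 3.84 ± 0.693 FPKM in control morulae and 1.47 ± 0.754 FPKM in 8-cell embryos (SD, n = 3 each), a log2 fold change of 1.00 (adjusted p = 0.00742 with limma, 0.058 under quantile normalization). SIRT1 was not called, at 0.43 (adjusted p = 0.0624 with limma), but was without 8-cell replicate 1 (adjusted p = 0.0486). SIRT7, the nucleolar sirtuin, averaged 8.32 ± 1.2 FPKM in control morulae and 8.16 ± 1.57 FPKM in 8-cell embryos (SD, n = 3 each).

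**Figure D3:**
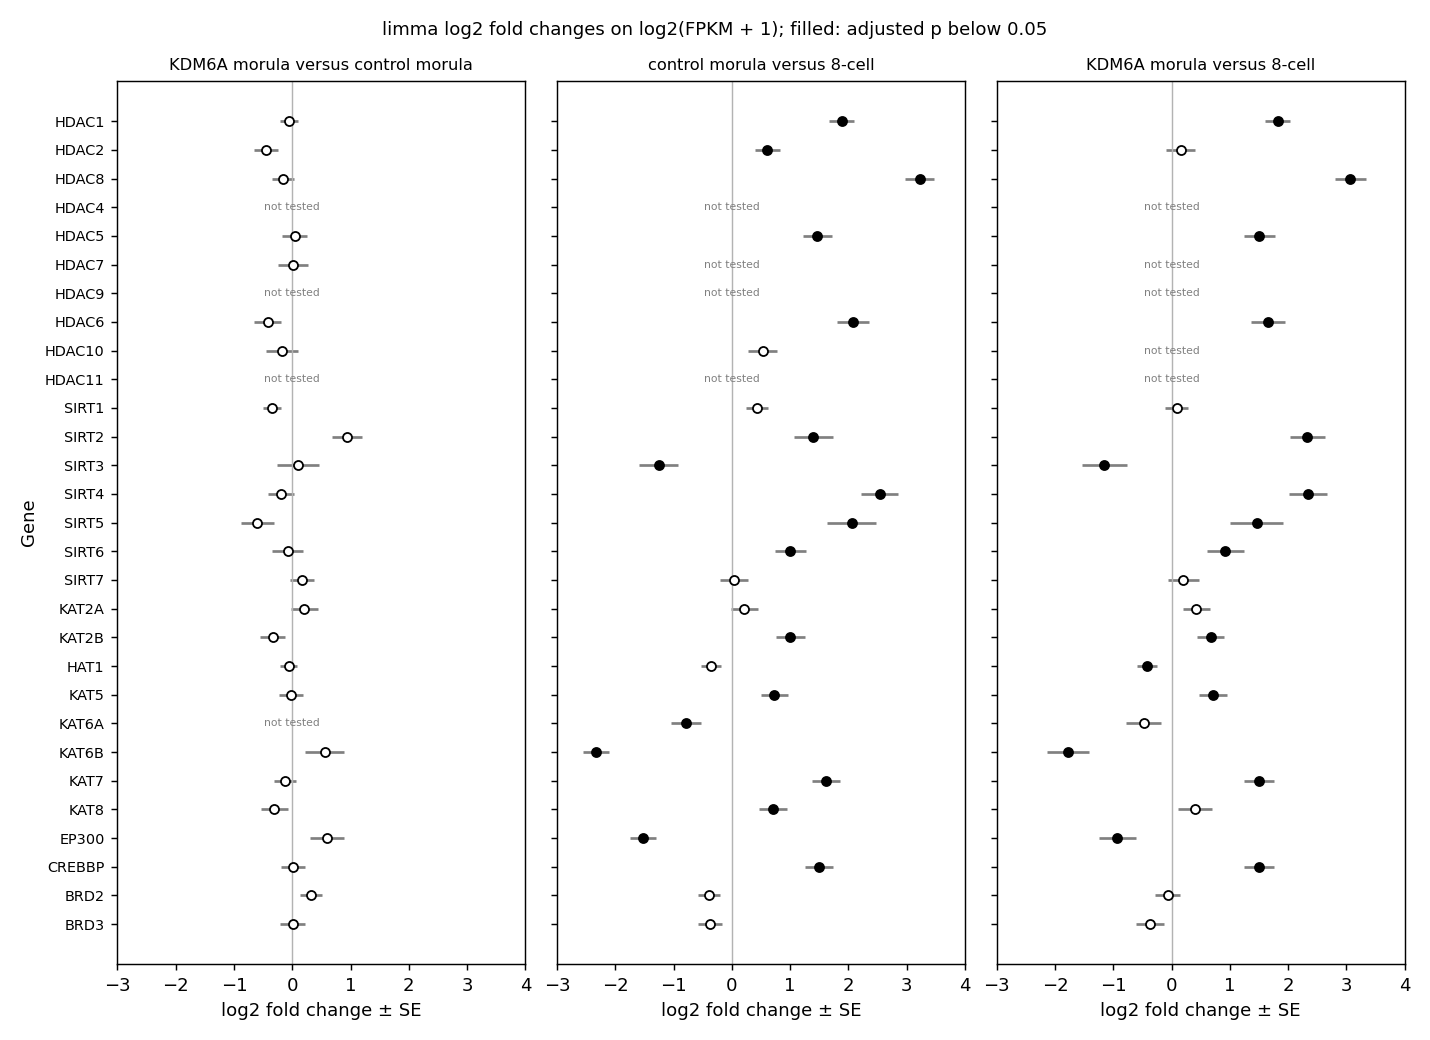
Log2 fold changes from limma on log2(FPKM + 1) for each member in the 3 comparisons, as points with bars of 1 standard error. Filled points have an adjusted p under 0.05: there are 0 in KDM6A against control morulae, 18 in control morulae against 8-cell embryos and 16 in KDM6A morulae against 8-cell embryos.

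EP300 and CREBBP changed in opposite directions. EP300 fell, at 15.18, 11.53 and 12.32 FPKM in control morulae, against 34.67, 35.32 and 48.4 FPKM in 8-cell embryos (log2 fold change -1.52, SE 0.222, adjusted p = 0.000194 with limma). CREBBP rose, at 8.45, 11.99 and 9.26 FPKM in control morulae, against 3.22, 3.08 and 2.29 FPKM in 8-cell embryos (log2 fold change 1.49, SE 0.244, adjusted p = 0.000404 with limma). Both genes separated the groups completely, and both calls and directions held under each alternative setting and with each library left out.

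The MYST family also held both rises and falls. KAT6B fell, at 2.32, 2.67 and 3.26 FPKM in control morulae, against 16.79, 17.93 and 18.64 FPKM in 8-cell embryos. It was 6.47-fold higher in 8-cell embryos by the ratio of means (log2 fold change -2.33, SE 0.225, adjusted p = 1.72e-05 with limma). KAT6A also fell, at 0.93, 0.6 and 0.71 FPKM in control morulae, against 1.57, 1.45 and 3.34 FPKM in 8-cell embryos (log2 fold change -0.79, adjusted p = 0.0202 with limma). All its control values lay under 1 FPKM, so it passed the filter only through the 8-cell libraries, where it was higher. Its call is among the falls counted above but cannot be separated from that selection. KAT6A was not called in the absence of control replicate 2 (adjusted p = 0.0677) or 3 (0.0581), without 8-cell replicate 3 (0.0576) and with no filter on low values (0.0549). KAT7, which acetylates histone H3 and H4 at replication origins and gene bodies, rose, at 37.37, 47.78 and 42.77 FPKM in control morulae, against 16.4, 14.24 and 9.66 FPKM in 8-cell embryos (log2 fold change 1.62, SE 0.238, adjusted p = 0.000204 with limma). KAT5, the catalytic subunit of the TIP60 complex, averaged 6.6 ± 1.11 FPKM in control morulae and 3.56 ± 0.415 FPKM in 8-cell embryos (SD, n = 3 each; log2 fold change 0.73, adjusted p = 0.0188 with limma). KAT8 averaged 40.6 ± 4.61 FPKM in control morulae and 25 ± 7.59 FPKM in 8-cell embryos (SD, n = 3 each; log2 fold change 0.71, adjusted p = 0.0223 with limma). Under median-of-ratios scaling the adjusted p was 0.0647 for both KAT5 and KAT8, and under quantile normalization it was 0.206 for KAT5. With a library left out, KAT5 was not called without control replicate 2 (adjusted p = 0.075) or 3 (0.0777), nor KAT8 without control replicate 1 (0.0574) or 2 (0.0829) and without 8-cell replicate 2 (0.0598) or 3 (0.0705).

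In the GNAT family only KAT2B, a coactivator enzyme that acetylates histone H3, passed the test with all libraries. It was at 27.91, 46.7 and 41.89 FPKM in control morulae, against 16.96, 16.34 and 22.61 FPKM in 8-cell embryos (log2 fold change 1.00, SE 0.247, adjusted p = 0.00467 with limma). Its relative KAT2A overlapped between the groups, at a mean of 1.69 ± 0.567 FPKM in control morulae and 1.29 ± 0.276 FPKM in 8-cell embryos (SD, n = 3 each). HAT1 was at 347.4, 261.8 and 299.3 FPKM in control morulae, against 373.6, 376.8 and 408.8 FPKM in 8-cell embryos, with no overlap but a log2 fold change of -0.36 (adjusted p = 0.0881 with limma). BRD2 was at 29.92, 29.05 and 25.9 FPKM in control morulae, against 38.05, 34.83 and 39.29 FPKM in 8-cell embryos (log2 fold change -0.39, adjusted p = 0.0833 with limma). BRD3 likewise did not overlap and was not called, at 1.71 ± 0.187 FPKM in control morulae and 2.52 ± 0.246 FPKM in 8-cell embryos (SD, n = 3 each). Whether these 3 genes passed depended on scaling: under quantile normalization HAT1 (adjusted p = 0.00755), BRD2 (0.0139) and BRD3 (0.0109) were all called lower in control morulae, and under median-of-ratios scaling HAT1 (0.0104) and BRD2 (0.0109) were. Over the whole set, 22 of the 25 members tested had no overlap between control morulae and 8-cell embryos, against 74.5% of all genes tested.

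KDM6A morulae were set against the same 8-cell libraries, so the 2 stage comparisons are not independent and are given side by side. Of 24 members tested with limma, 12 rose and 4 fell in KDM6A morulae, and over all 10024 genes tested 66.7% were called, 41.1% higher and 25.6% lower. The median log2 fold change was 0.55 over the members and 0.34 over all genes. Under quantile normalization the members split into 8 higher and 6 lower, and under median-of-ratios scaling into 10 and 4. No overlap with 8-cell embryos was seen for 17 of the 24, against 71.3% of all genes tested. HDAC8 again had the largest log2 fold change of the members tested, at 3.07 (SE 0.263, adjusted p = 4.79e-06 with limma). HDAC1 followed with 1.82 among class I enzymes, while HDAC2 was not called at 0.16 (adjusted p = 0.591 with limma). SIRT2 had a log2 fold change of 2.33 in KDM6A morulae and 1.40 in control morulae against the 8-cell libraries. SIRT4 had 2.34 in KDM6A morulae and 2.53 in control morulae, and HDAC6 had 1.65 in KDM6A morulae and 2.07 in control morulae. CREBBP had 1.5 in KDM6A morulae and 1.49 in control morulae. EP300 had -0.93 in KDM6A morulae and -1.52 in control morulae, and KAT6B had -1.77 in KDM6A morulae and -2.33 in control morulae.

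Several of these calls against 8-cell embryos rested on few libraries. EP300 in KDM6A morulae (adjusted p = 0.0219 with limma) was not called without KDM6A replicate 1 (0.0665), without 8-cell replicate 3 (0.0817) or with no filter on low values (0.0769). SIRT3 (log2 fold change -1.16, adjusted p = 0.0206 with limma) was not called without KDM6A replicate 3 (0.0958) or 8-cell replicate 1 (0.0751). HAT1 (log2 fold change -0.42, adjusted p = 0.0433 with limma) was not called without KDM6A replicate 2 (0.121) or 3 (0.135) or 8-cell replicate 3 (0.122). The falls therefore numbered 2 instead of 4 both without KDM6A replicate 3 and without 8-cell replicate 3. SIRT5 (1.46) lost its call without KDM6A replicate 1 (adjusted p = 0.0746) or 8-cell replicate 3 (0.0526). SIRT6 (0.92) lost it without KDM6A replicate 1 (0.0873) or 2 (0.0913) and without 8-cell replicate 2 (0.0668) or 3 (0.08). KAT2B (0.67) lost it without KDM6A replicate 1 (0.0556) or 2 (0.0754) and without 8-cell replicate 1 (0.0535) or 2 (0.0527). KAT5 (0.71) lost it without KDM6A replicate 1 (0.0564) or 2 (0.102) and without 8-cell replicate 2 (0.0608). Scaling ended some of these calls too. Under quantile normalization the adjusted p was 0.0594 for SIRT5, 0.136 for SIRT6, 0.0622 for KAT2B and 0.235 for KAT5, and under median-of-ratios scaling it was 0.072 for KAT2B and 0.0657 for KAT5. With no filter on low values it was 0.0844 for SIRT3, 0.0909 for SIRT5 and 0.0818 for SIRT6. Without KDM6A replicate 1 the members called numbered 11, the lowest of the left-out libraries. HDAC1, HDAC5, HDAC6, HDAC8, SIRT2, SIRT4, KAT6B, KAT7 and CREBBP were called with every library left out in turn. HDAC5 met the filter here too through the morula libraries, where it was higher.

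Summed over families, the FPKM of the HDAC deacetylases was 294.8 to 338.5 in KDM6A morulae, 333.3 to 396.4 in control morulae and 103.8 to 145.4 in 8-cell embryos. The sirtuins summed to 101.7 to 111.3 FPKM in KDM6A morulae, 116.7 to 128.7 FPKM in control morulae and 69.64 to 90.25 FPKM in 8-cell embryos. The acetyltransferases had the opposite order of stages, at 407 to 469.5 FPKM in KDM6A morulae, 436.9 to 488.6 FPKM in control morulae and 489.1 to 540 FPKM in 8-cell embryos. HAT1 made up 66% of that sum in KDM6A morulae, 65.7% in control morulae and 75.7% in 8-cell embryos. Without HAT1 the sums were 138.1 to 158.1 FPKM in KDM6A morulae, 141.2 to 175.1 FPKM in control morulae and 112.4 to 131.3 FPKM in 8-cell embryos. The HDAC sum leaves out HDAC3, which was not analysed. The family sums were not tested.

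The genes that made up each family's sum also differed by stage, as a description with no test. The HDAC shares are of the sum without HDAC3. HDAC2 held 24.3% ± 4.73 of the HDAC sum in KDM6A morulae, 29% ± 4.74 in control morulae and 54.2% ± 5.41 in 8-cell embryos (SD, n = 3 each). HDAC8 held 20.8% ± 3.67 of it in KDM6A morulae, 20.1% ± 2.15 in control morulae and 5.49% ± 0.784 in 8-cell embryos (SD, n = 3 each). Among the acetyltransferases other than HAT1, EP300 held 14.5% ± 6.31 in KDM6A morulae, 8.44% ± 2.12 in control morulae and 31.7% ± 4.98 in 8-cell embryos (SD, n = 3 each). KAT7 held 26.4% ± 2.71 of the same sum in KDM6A morulae, 27.2% ± 0.647 in control morulae and 10.9% ± 3.09 in 8-cell embryos (SD, n = 3 each). HDAC8 and KAT7 thus held larger shares in each morula group, and HDAC2 and EP300 larger shares in 8-cell embryos. SIRT1 was the most abundant sirtuin transcript in each group, at 56.1% ± 4.78 of the sirtuin sum in KDM6A morulae, 63% ± 4.04 in control morulae and 70.4% ± 2.68 in 8-cell embryos (SD, n = 3 each).

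**Figure D4:**
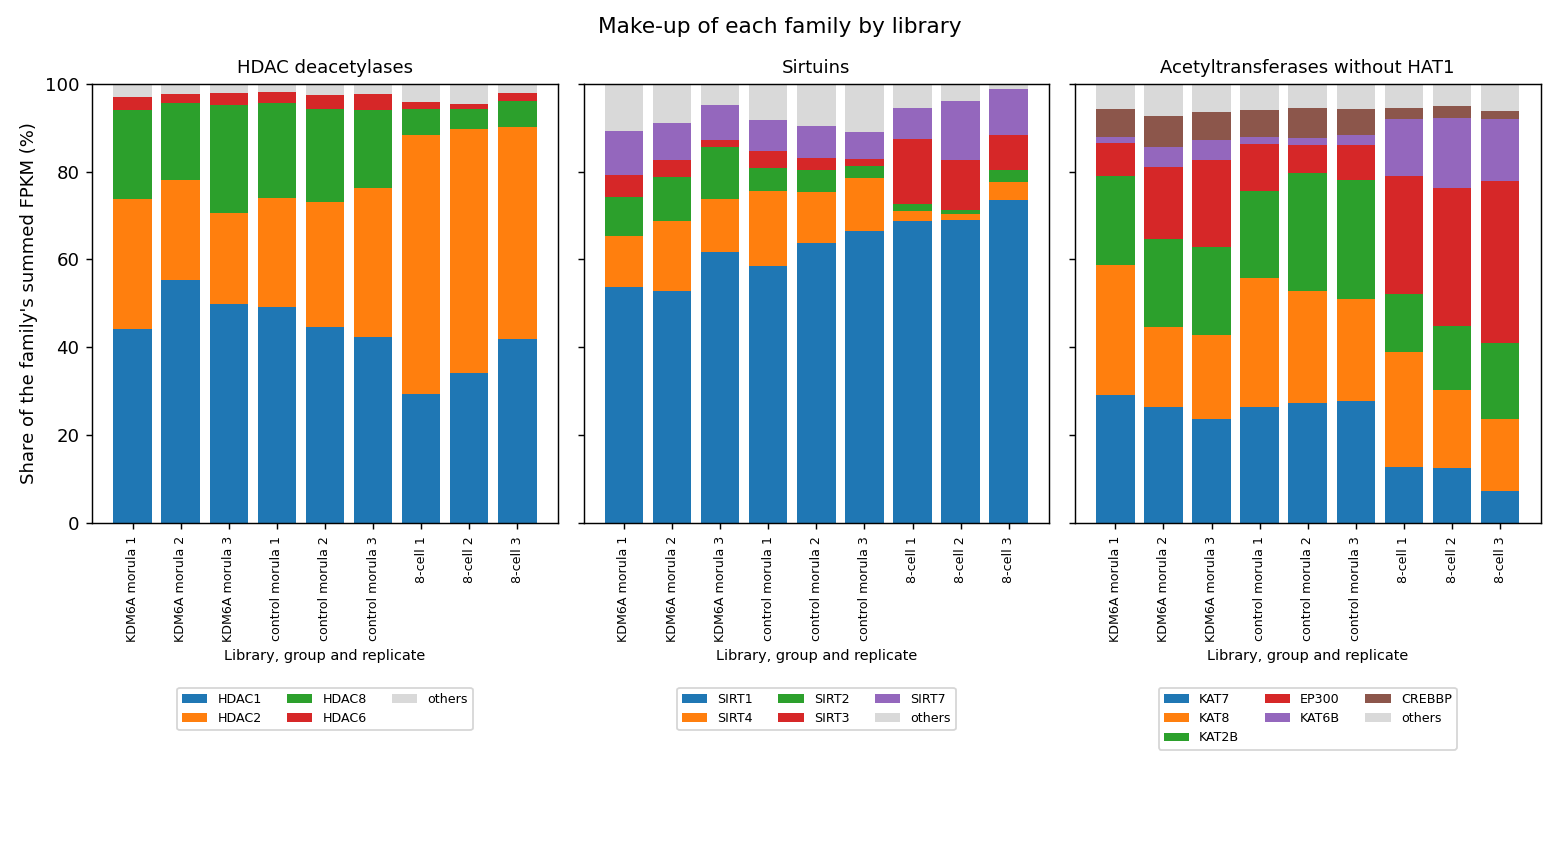
Share of each family's summed FPKM held by its main genes in each library, as stacked bars that add to 100%, for HDAC deacetylases, sirtuins and acetyltransferases other than HAT1. HDAC3 was not analysed and is not in the HDAC bar. HDAC2 takes about 54.2% of the HDAC bar in 8-cell embryos and 24.3% and 29% in KDM6A and control morulae, and the EP300 and KAT6B segments are widest in 8-cell embryos.

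Ratios within a library do not depend on how libraries are scaled, apart from the added 1 FPKM, so 9 pairs of related genes were compared as differences of log2(FPKM + 1). Between 3 and 3 libraries an exact two-sided permutation test cannot give a p under 0.1. The EP300 to CREBBP log2 ratio was 0.22, 1.13 and 1.5 in KDM6A morulae, 0.78, -0.05 and 0.38 in control morulae and 3.08, 3.15 and 3.91 in 8-cell embryos. It was thus lower by 3.01 in control morulae than in 8-cell embryos, without overlap (difference -3.01, exact permutation p = 0.1, adjusted p = 0.18 over the 9 pairs). Between KDM6A and control morulae the ratio differed by 0.58 with overlap (exact permutation p = 0.3). The HDAC1 to HDAC2 log2 ratio was 0.57, 1.27 and 1.26 in KDM6A morulae, 0.99, 0.65 and 0.31 in control morulae and -0.98, -0.69 and -0.20 in 8-cell embryos, so HDAC1 exceeded HDAC2 in all 6 morula libraries and in no 8-cell library. The pairs HDAC7 to HDAC9, HDAC6 to HDAC10 and KAT6A to KAT6B also had higher log2 ratios in control morulae, by 1.81, 1.55 and 1.54 without overlap. For HDAC7 to HDAC9, both low, the difference was 4.07 with 0.1 FPKM added in place of 1, and against 8-cell embryos KDM6A morulae had 1.95, or 4.53 with 0.1 FPKM added. In all, 0 of 9 pairs separated KDM6A from control morulae, 5 separated control morulae from 8-cell embryos and 6 separated KDM6A morulae from 8-cell embryos. The sixth was HDAC4 to HDAC5, with a difference of -0.85 that turned to 0.538 with 0.1 FPKM added, HDAC4 being listed at 0 in all 8-cell libraries. The share of other gene pairs without overlap was not computed, so these counts are a description. For single genes the share was 15.7% of all tested between KDM6A and control morulae. Against 8-cell embryos it was 74.5% for control morulae and 71.3% for KDM6A morulae. The BRD2 to BRD3 log2 ratio averaged 3.75 ± 0.319 in KDM6A morulae, 3.43 ± 0.0605 in control morulae and 3.45 ± 0.186 in 8-cell embryos (SD, n = 3 each).

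**Figure D5:**
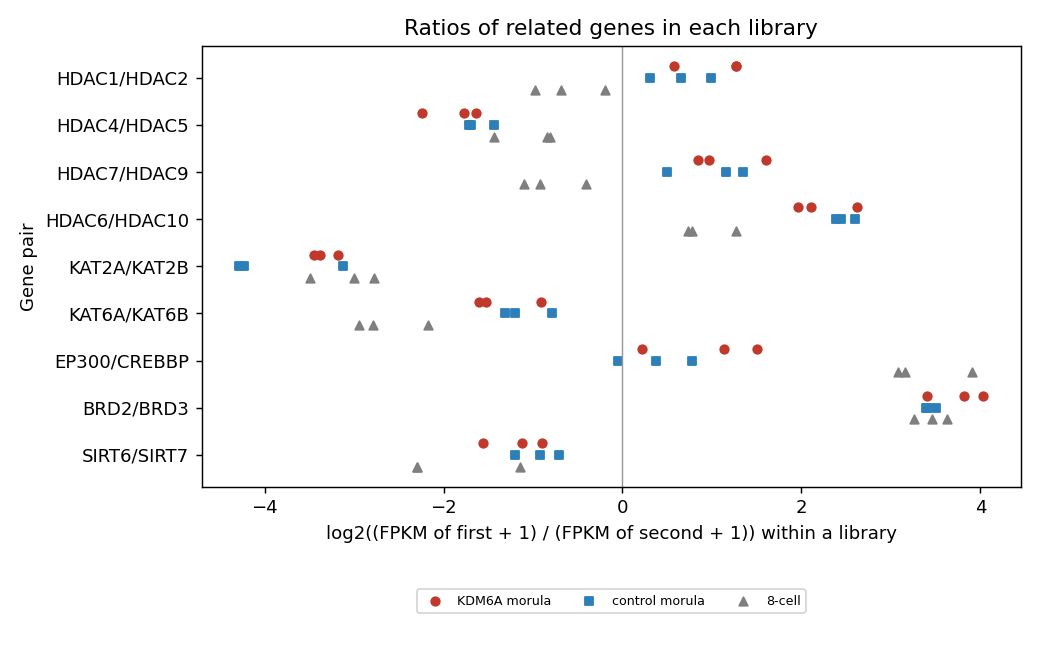
Log2 ratio of 9 pairs of related genes in each library, with 1 FPKM added to each gene. Red circles are KDM6A morulae, blue squares control morulae and grey triangles 8-cell embryos. EP300/CREBBP and HDAC1/HDAC2 place all 8-cell libraries to one side of all morula libraries, and no pair separates KDM6A from control morulae.

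The complexes and substrates around these enzymes were followed in 5 lists. Between KDM6A and control morulae 0 genes of any list were called with limma. The lists had 27 deacetylase complex partners, 49 acetyltransferase complex subunits, 9 other acetyltransferases, 21 other acetyl-lysine readers and 12 genes of acetyl-CoA and NAD supply that could be tested. The supply list also holds enzymes that use acetyl-CoA or NAD, such as CS, PARP1 and CD38. The median log2 fold changes were -0.08 for the deacetylase partners, 0.04 for the acetyltransferase subunits, 0.12 for the other acetyltransferases, 0.14 for the readers and -0.06 for the supply genes. An unadjusted p under 0.05 was seen for 6 deacetylase partners, 2 acetyltransferase subunits, 1 other acetyltransferase, 4 readers and 3 supply genes, and for 12.7% of all genes tested. Without KDM6A replicate 1 the called genes numbered 2 deacetylase partners, 3 acetyltransferase subunits, 4 readers and 1 supply gene, and 7.62% of all genes. MBD2, a methyl-DNA binding subunit of NuRD, averaged 7.59 ± 1.77 FPKM in KDM6A morulae and 13.5 ± 1.25 FPKM in control morulae (SD, n = 3 each; adjusted p = 0.248 with limma). CS, the citrate synthase, averaged 834 ± 149 FPKM in KDM6A morulae and 549 ± 123 FPKM in control morulae (SD, n = 3 each; adjusted p = 0.279 with limma). MSL2, a subunit of the KAT8 complex MSL, averaged 7.43 ± 3.91 FPKM in KDM6A morulae and 2.73 ± 0.551 FPKM in control morulae (SD, n = 3 each; adjusted p = 0.291 with limma), and without KDM6A replicate 1 its adjusted p was 0.00757.

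Partners of the deacetylases that were called in control morulae against 8-cell embryos more often fell than rose. Of 28 deacetylase complex partners tested, 5 rose and 16 fell, or 75% called where 69.8% of all genes were called, 42.7% higher and 27.1% lower. The median log2 fold change was -0.74, beside 0.35 over all genes. Without control replicate 3 the count was 4 rises and 13 falls. ARID4A, a Sin3-associated subunit, averaged 7.63 ± 2.19 FPKM in control morulae and 52 ± 5.51 FPKM in 8-cell embryos (SD, n = 3 each; log2 fold change -2.64, adjusted p = 1.27e-05 with limma). ING1, which tethers Sin3 to methylated histone H3, had a log2 fold change of -2.38 (adjusted p = 1.64e-05 with limma), and BRMS1, also of the Sin3 complex, rose by 1.95 on the log2 scale. In KDM6A morulae against 8-cell embryos 3 of 26 partners rose and 18 fell, with a median of -0.94, where 41.1% of all genes rose and 25.6% fell with a median of 0.34.

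Of 50 subunits of acetyltransferase complexes, 8 rose and 12 fell in control morulae against 8-cell embryos, 40% of those tested where 69.8% of all genes were called, with a median log2 fold change of -0.03. Under quantile normalization 6 rose and 20 fell. TAF9, shared by TFIID and the KAT2A complex SAGA, averaged 7.32 ± 1.67 FPKM in control morulae and 372 ± 102 FPKM in 8-cell embryos (SD, n = 3 each; log2 fold change -5.47, adjusted p = 4.78e-07 with limma). MBIP, of the KAT2A and KAT2B complex ATAC, had a log2 fold change of -1.97, and MSL2 one of -2.64 (adjusted p = 2e-05 and 1.42e-05 with limma). In KDM6A morulae against 8-cell embryos 8 of 50 rose and 14 fell, or 6 and 18 under quantile normalization, where 66.7% of all genes were called. TAF9 was at 9.9 ± 2.8 FPKM in KDM6A morulae (SD, n = 3).

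Of the 9 other acetyltransferases, 4 rose and 3 fell in control morulae against 8-cell embryos, and 3 rose and 2 fell in KDM6A morulae. Those are 77.8% of the list in control morulae, beside 69.8% of all genes, and 55.6% in KDM6A morulae, beside 66.7%. Under quantile normalization 2 rose and 3 fell in control morulae, and 1 rose and 3 fell in KDM6A morulae. The 5 calls in KDM6A morulae were 3 without KDM6A replicate 2 or without 8-cell replicate 3. ATF2, a DNA-binding factor with reported acetyltransferase activity, averaged 21.9 ± 3.34 FPKM in KDM6A morulae, 15.1 ± 2.47 FPKM in control morulae and 133 ± 23.2 FPKM in 8-cell embryos (SD, n = 3 each). ELP3, the catalytic subunit of Elongator, rose in both, with log2 fold changes of 1.60 in KDM6A morulae and 1.73 in control morulae. The other readers counted 3 rises and 8 falls among 22 tested in each stage comparison, or 50% called, beside 66.7% of all genes for KDM6A morulae and 69.8% for control morulae. Under quantile normalization there were 1 rise and 9 falls in KDM6A morulae and 1 rise and 10 falls in control morulae. Among these readers CECR2 averaged 0.29 ± 0.0954 FPKM in KDM6A morulae, 0.233 ± 0.292 FPKM in control morulae and 5.36 ± 1.81 FPKM in 8-cell embryos (SD, n = 3 each). It passed the filter only through the 8-cell libraries. Its fall (adjusted p = 3.09e-05 with limma in KDM6A morulae) therefore cannot be separated from that selection. SMARCA2, a bromodomain ATPase of the SWI/SNF remodeller, averaged 1.48 ± 0.921 FPKM in KDM6A morulae, 2.68 ± 0.548 FPKM in control morulae and 26.3 ± 8.3 FPKM in 8-cell embryos (SD, n = 3 each). BAZ1A, a subunit of ISWI remodellers, fell by 2.48 on the log2 scale in control morulae (adjusted p = 9.67e-06 with limma).

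Genes of the acetyl-CoA and NAD list, which mixes supply enzymes with enzymes that use these substrates, mostly rose. In control morulae against 8-cell embryos 10 of 13 rose and 2 fell, with a median log2 fold change of 2.06, and in KDM6A morulae 9 of 13 rose and 2 fell, with a median of 1.82. Over all genes 42.7% rose with a median of 0.35 in control morulae, and 41.1% rose with a median of 0.34 in KDM6A morulae. PDHB, a subunit of the pyruvate dehydrogenase that makes mitochondrial acetyl-CoA, averaged 267 ± 11.1 FPKM in KDM6A morulae, 276 ± 38.9 FPKM in control morulae and 63.9 ± 11.6 FPKM in 8-cell embryos (SD, n = 3 each). CD38, an NAD-consuming enzyme, rose by 3.22 on the log2 scale in control morulae (adjusted p = 8.57e-06 with limma). PARP1, which also uses NAD, averaged 57.6 ± 17.4 FPKM in KDM6A morulae, 34.6 ± 2.13 FPKM in control morulae and 7.23 ± 1.08 FPKM in 8-cell embryos (SD, n = 3 each). The rises are therefore not a measure of supply alone. NAMPT, the rate-limiting enzyme of NAD salvage, was among the falls, at 20.4 ± 5.75 FPKM in KDM6A morulae, 16.2 ± 6.8 FPKM in control morulae and 143 ± 32.8 FPKM in 8-cell embryos (SD, n = 3 each; adjusted p = 9.98e-06 and 1.94e-05 with limma for KDM6A and control morulae against 8-cell embryos). ACSS2 was also lower in morulae, at 0.0933 ± 0.0586 FPKM in KDM6A morulae, 0.197 ± 0.0907 FPKM in control morulae and 4.21 ± 2.41 FPKM in 8-cell embryos (SD, n = 3 each). It passed the filter only through the 8-cell libraries. The summed maternal transcripts, at 3855 to 9160 FPKM in 8-cell embryos, moved in the same direction as the genes of these lists that fell, and their part in those falls was not tested.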

How the data were processed

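The deposited files hold FPKM per gene, per the file headers, written by the authors with 2 decimals. The submitters' processing notes name RSEM 1.2.12, Bowtie2 2.2.5, StringTie 1.0.4, HISAT 0.1.6, bcl2fastq 2.16 and build UMD3.1. The role of each tool, the treatment of reads mapping to several genes and the depth were not given in the sources used here. Ratios of low values between 36 pairs of libraries showed no steps of whole reads, with at most 9.01% in the most common log2 bin of width 0.1, so no counting interval is given and precision rests on 3 libraries per group. Reads of close relatives such as HDAC1 and HDAC2 may have been split between them.

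Genes were joined by identifier, and rows that name no annotated gene were left out of every library, 3038 of them in control replicate 1. Tests used limma 3.58.1 in R 4.3.3, with a trended prior, on log2(FPKM + 1), which understates the change of low genes. A separate fit per comparison took its 6 libraries and all genes at or above 1 FPKM in at least 3 of them, with Benjamini-Hochberg adjustment over all genes tested and a threshold of 0.05. Folds given as ratios are of mean FPKM. Pair ratios were tested by exact permutation in scipy 1.17.1. Tables were read with pandas 2.3.3 in Python 3.11.15 and plotted with matplotlib 3.10.9. Tested on simulated data in which 200 of 9777 genes changed, the KDM6A and control comparison recovered 55% of changes of 1 log2 unit and 90% of 2, with 11 false calls. The figures were 27% and 84% with 6 false calls for control morulae against 8-cell embryos. They were 34% and 87% with 2 false calls for KDM6A morulae against 8-cell embryos. Each simulation changed 200 genes, whereas 69.8% of all genes were called for control morulae and 66.7% for KDM6A morulae against 8-cell embryos. The adjustment depends on that share, so recovery in the real stage comparisons is not known. The changed genes were drawn from those averaging about 5 FPKM or more on the log2(FPKM + 1) scale, so recovery for lower members is not known.

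The members and lists were chosen with earlier results of these data known. Named are all members, KDM6A, and from each list up to 3 genes of smallest unadjusted p per comparison, of which some are printed. Alternatives were a pseudocount of 0.1, no filter, a filter of 5 FPKM, median-of-ratios scaling, quantile normalization, 1 fit of all 9 libraries, a block for the replicate number, and leaving out 1 library at a time with the tested genes kept.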

Additional observations from a re-analysis of the deposited data

How the results depend on the processing

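The genes called between KDM6A and control morulae numbered 16 with limma, 0 with no filter on low values, 28 under quantile normalization, 10 with all 9 libraries in 1 fit and 1 with the replicate number as a block. They ran from 1 to 745 with 1 library left out, the highest without KDM6A replicate 1. Members called, and members higher, ran from 0 to 2 in that comparison. Members lower numbered 7 under quantile normalization in control morulae against 8-cell embryos, and 2 to 4 with 1 library left out in KDM6A morulae against 8-cell embryos. Same-numbered KDM6A and control libraries deviated with correlations of -0.217, -0.242 and 0.16, so the numbers were not taken to pair them, and with the replicate block 0, 18 and 15 members were called in the 3 comparisons, HAT1 being lost in KDM6A morulae against 8-cell embryos (adjusted p = 0.0989 with limma). The causes of these differences were not tested.

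Direction turned for these members, none of which was called in the comparison given. Under quantile normalization the log2 fold changes of KDM6A against control morulae were 0.00614 for HDAC1, -0.0202 for HDAC7, 0.0314 for HAT1, -0.0025 for CREBBP and -0.0244 for BRD3. With 1 library left out they ran from -0.047 to 0.154 for HDAC5, -0.211 to 0.167 for HDAC7, -0.443 to 0.0388 for HDAC10, -0.181 to 0.493 for SIRT3 and -0.223 to 0.202 for SIRT6. They ran from -0.161 to 0.0428 for HAT1, -0.144 to 0.0641 for KAT5, -0.231 to 0.00952 for KAT7, -0.0851 to 0.144 for CREBBP and -0.0536 to 0.107 for BRD3. In control morulae against 8-cell embryos SIRT7 had -0.295 under quantile normalization, -0.161 under median-of-ratios scaling and -0.115 to 0.133 with 1 library left out, and KAT2A had -0.0779 under quantile normalization. In KDM6A morulae against 8-cell embryos HDAC2 had -0.0459 under median-of-ratios scaling and -0.0466 to 0.326 with 1 library left out. SIRT1 had -0.048 under quantile normalization, -0.117 under median-of-ratios scaling and -0.0299 to 0.153 with 1 library left out, SIRT7 had -0.123 under quantile normalization, and BRD2 had -0.161 to 0.0614 with 1 library left out. With a pseudocount of 0.1 in place of 1 the HDAC4 to HDAC5 log2 ratio differed from 8-cell embryos by 0.538 in place of -0.85 in KDM6A morulae and by 1.09 in place of -0.59 in control morulae, and the BRD2 to BRD3 ratio by 0.132 in control morulae. Depth is unknown, so values under about 1 FPKM carry no stated precision.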
